A study of Mus musculus with 47 samples.

Results

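The comparison set the hippocampus of old female mice 1 day after the onset of sepsis against that of old female controls that had not been septic. It covered every gene whose deposited counts-per-million (CPM) value averaged at least 5 over these 8 libraries, which left 11745 of the 28032 genes in the table. All mice of this comparison were C57BL/6 females aged 18 to 22 months. The 4 mice of the day 1 group underwent cecal ligation and puncture (CLP), an operation that ties off and punctures the cecum so that gut bacteria leak into the abdomen, and were killed 24 hours later. They also received buprenorphine after surgery, imipenem injections, and cone restraint in the hour before death. The 4 controls came straight from the home cage with no operation and no surgical anesthesia, so the effects of sepsis cannot be told apart from those of surgery, drugs and restraint. A whole hippocampus was sequenced per library, and the labels give no cage, litter, estrous stage, batch or hour of killing. Later paragraphs also use day 1 and control groups of C57BL/6 young females (3 to 5 months) and old males (18 to 22 months).

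Sepsis is a dysregulated response to infection in which bacterial products and cytokines circulate through the body. The brain is reached through the endothelium of its vessels, through nerves, and through hormones of the adrenal gland, chiefly the glucocorticoid corticosterone in mice. The hippocampus, which serves memory, carries many glucocorticoid receptors. Its microglia, astrocytes, oligodendrocytes and endothelial cells each have well known transcriptional responses to inflammation, and these provide the gene lists used here.

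The libraries held between 19538274 and 22444367 reads assigned to genes, as estimated from the smallest repeated value in each. Neuronal transcripts were abundant in all 8, with Snap25 between 973 and 1589 CPM, the dentate gyrus marker Prox1 between 62.6 and 81.5 CPM and the CA1 marker Wfs1 between 86.8 and 139 CPM. Iyd, listed as a CA3 marker, lay below the minimum, at 2.03, 1.76, 0.812 and 1.72 CPM in the controls and 1.65, 2.2, 1.36 and 1.55 CPM on day 1. A pair of libraries carried choroid plexus RNA: Ttr, the transthyretin gene of that epithelium, stood at 1801 CPM in control replicate 3 and 3129 CPM in day 1 replicate 3, against 4.81 to 147 CPM in the other 6. The summed level of the 16 choroid plexus markers was 2106 and 3493 CPM in that pair of libraries and between 30.3 and 190.3 CPM in the others, and 0 of the 8 markers tested passed by limma, at an unadjusted p below 0.01 or below 0.05. Meningeal markers summed to between 110 and 272 CPM in controls and between 115 and 392 CPM on day 1, highest in day 1 replicates 2 and 3. Red cell genes summed to between 329 and 571 CPM in controls and between 303 and 545 CPM on day 1. Lymphocyte markers did not sum to more than 2.44 CPM in any library.

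Old female mice showed a broad change on day 1. By limma on log2(CPM + 1), 3141 of 11745 genes differed at the threshold the study used, an unadjusted p below 0.01, which is 26.7% of the genes tested. Of these, 1562 rose (13.3% of genes tested) and 1579 fell (13.4%). The Benjamini-Hochberg adjusted p of these 3141 genes was at most 0.0373, and 3482 genes lay under an adjusted p of 0.05. Among the genes called, 166 rose and 144 fell by at least 1 on the log2 scale, the median within-group SD being 0.166. The 4 day 1 libraries lay all above or all below the 4 controls in 3546 genes (30.2%), of which 2865 were among those called. The first principal component, with 55.1% of the variance, placed the controls between -25.6 and -20 and the day 1 libraries between 17.2 and 27.2. The gene just inside the minimum of 5 CPM was Aldh1a2, at a mean of 5.00069 CPM, and the gene just outside it was Gstt1, at 4.99873 CPM. Of the genes that rose, 121 had a control mean below 5 CPM, and of those that fell, 128 had a day 1 mean below it. Such genes entered through the group in which they were high. With both choroid plexus rich libraries left out, 2605 genes were called, 2418 of them shared with the full comparison, and 0 of the 3141 changed sign. Counts of list members given below stand against 13.3% and 13.4% of all genes that rose and fell. Below, a gene "rose" or "fell" when it passed that threshold, every adjusted p is limma's over all 11745 genes, and n = 4 libraries per group. Because the tissue was sequenced in bulk, fewer cells of a type and less RNA per cell cannot be told apart.

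The genes that rose most among those with separate groups and a mean of at least 20 CPM were Lcn2, Ctla2a, Plin4, Cdkn1a, Pnpla2, Arrdc2, Mt2 and Gpx3. Of these, Lcn2, Ctla2a, Plin4 and Gpx3 averaged under 5 CPM in the controls and entered the test only through their day 1 values. Lcn2, which encodes the iron-siderophore binding protein lipocalin 2, was at 0.79, 0.977, 0.94 and 1.01 CPM in the controls and 37.5, 104, 74 and 29.4 CPM on day 1 (log2 fold change 4.84 ± 0.31 (SE), adjusted p = 8.67e-07). Every day 1 library exceeded every control many times over, although the day 1 values themselves spread widely. Ctla2a, which encodes a cysteine protease inhibitor, was at 1.79, 2.27, 1.79 and 1.87 CPM in the controls and 79, 78.2, 74.7 and 50.9 CPM on day 1 (log2 fold change 4.59 ± 0.15 (SE), adjusted p = 3.78e-09). Day 1 replicate 4 of Ctla2a, at 50.9 CPM, stood apart below the others of its group. Part of the Ctla2a transcript matches other genes, since 30.1% of its 50-base stretches occur elsewhere in the annotation. Cdkn1a, the cell cycle inhibitor p21, was at 5.42, 5.003, 7.95 and 7.16 CPM in the controls and 153, 138, 78.2 and 110.1 CPM on day 1 (log2 fold change 4.01 ± 0.19 (SE), adjusted p = 1.12e-07). Arrdc2, an arrestin domain gene, rose from 10.5 ± 1.53 to 56 ± 18.9 CPM (mean ± SD, log2 fold change 2.24). Gpx3, a secreted glutathione peroxidase, was at 3.05, 4.07, 6.15 and 3.19 CPM in the controls and 9.12, 19.96, 148 and 7.02 CPM on day 1, highest in the choroid plexus rich replicate 3 (log2 fold change 2.17 ± 0.69 (SE), adjusted p = 0.0314). Gpx3 was called in 3 of the 8 fits that left out a single library, and its log2 fold change without replicate 3 of both groups was 1.44.

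The genes that fell most by the same rule were Ugt8a, Padi2, Lct, Cbfa2t3, Grm3, Chordc1, Pllp and Cx3cr1. Ugt8a makes galactosylceramide, the main glycolipid of myelin, and was at 38.4, 42.9, 36.3 and 30.2 CPM in the controls and 3.93, 4.78, 4.89 and 3.65 CPM on day 1 (log2 fold change -2.83 ± 0.13 (SE), adjusted p = 1.08e-07). The highest day 1 value of Ugt8a was far under its lowest control value. Padi2, a peptidylarginine deiminase of oligodendrocytes, was at 54, 49.3, 60.5 and 45 CPM in the controls and 11.5, 14.4, 9.79 and 15.2 CPM on day 1 (log2 fold change -1.97 ± 0.14 (SE), adjusted p = 2.03e-06). Cbfa2t3, a transcriptional corepressor, was at 29.8, 32.3, 36.8 and 36.7 CPM in the controls and 11.1, 11.4, 9.09 and 9.38 CPM on day 1 (log2 fold change -1.63 ± 0.11 (SE), adjusted p = 1.73e-06). Both genes had tight groups with a wide gap between them. Lct, the lactase gene, listed here as a dentate gyrus marker, was at 47.5, 41.9, 40.4 and 46.3 CPM in the controls and 13.5, 16, 18.4 and 8.14 CPM on day 1 (log2 fold change -1.64 ± 0.19 (SE), adjusted p = 7.51e-05). Pllp, a myelin lipid raft protein, fell from 41.8 ± 2.03 to 13.5 ± 2.56 CPM (log2 fold change -1.58), but 54.2% of its exon bases are overlapped by an antisense gene. The remaining members of this group, Grm3, Chordc1 and Cx3cr1, are described with their lists below.

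**Figure D1:**
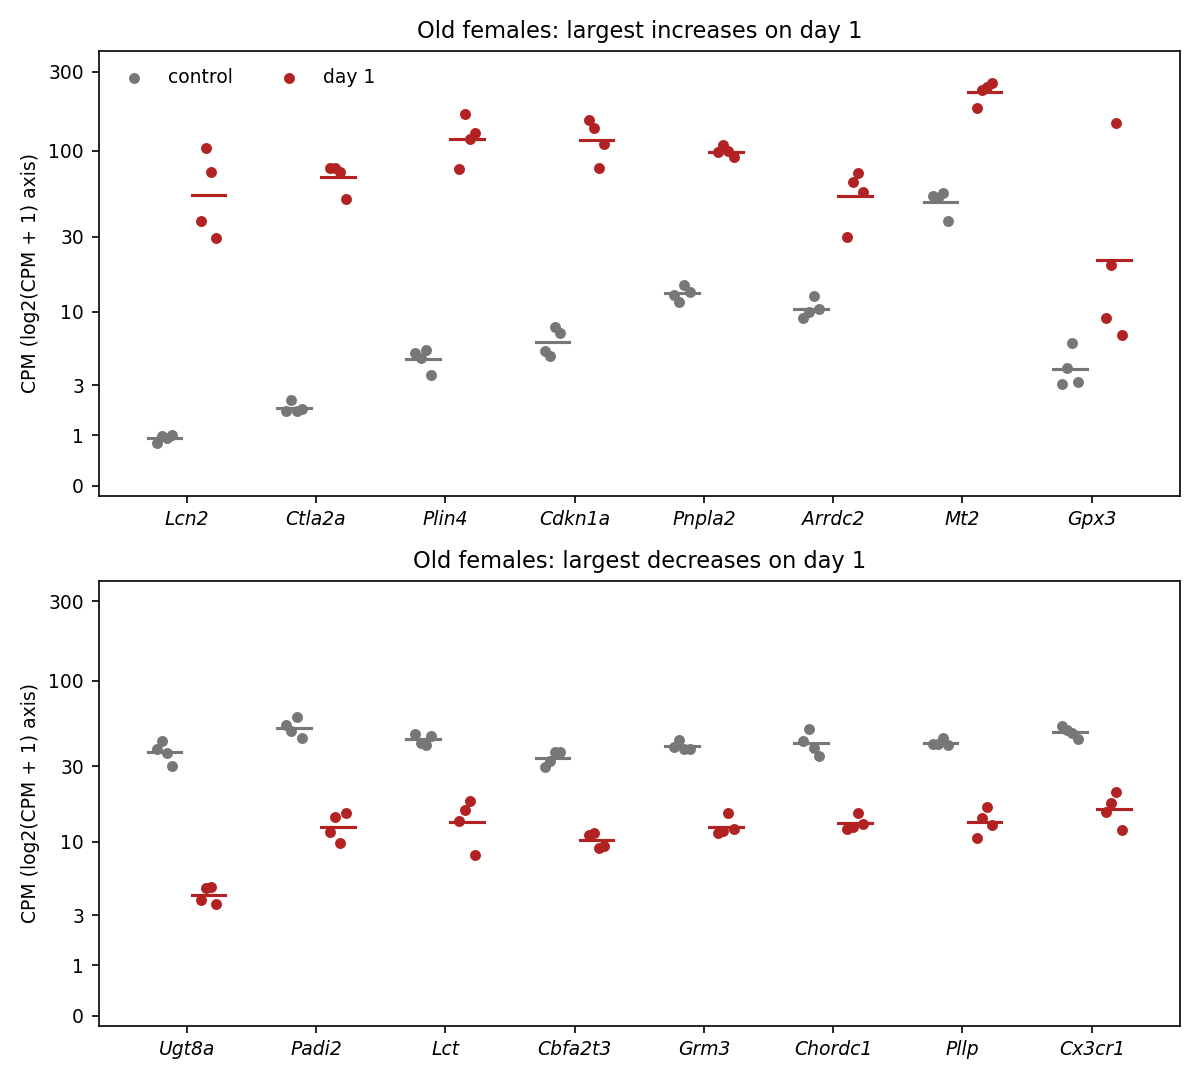
Expression in CPM, on a log2(CPM + 1) axis, of the 8 genes with the largest increase (top) and the 8 with the largest decrease (bottom) among called genes with separate groups and a mean of at least 20 CPM. Each point is a library (grey, 4 controls; red, 4 day 1) and the bars mark group means; the day 1 points of Gpx3 span 7.02 to 148 CPM, whereas those of Ugt8a span 3.65 to 4.89 CPM.

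Glucocorticoids enter cells and activate the glucocorticoid receptor Nr3c1, which binds DNA and raises a set of genes that includes its own inhibitors. Of the 36 listed glucocorticoid response genes, all were measured, 33 rose and 1 fell, where 13.3% and 13.4% of all genes did. The median log2 fold change of the list was 1.16, against 0.013 over all genes tested. The list was drawn up with earlier results on these libraries known and is no independent evidence of its direction. Lcn2, Plin4, Hif3a, Map3k6, Pla2g3 and Sult1a1 of this list averaged under 5 CPM in the controls. They entered the test only through their day 1 values, so the count and the median are set in part by the minimum. The receptor gene Nr3c1 was the member that fell, from 74.2 ± 3.18 to 51.1 ± 5.36 CPM (log2 fold change -0.53 ± 0.0919 (SE), adjusted p = 0.0012). Among genes that act back on the receptor or its signals, Fkbp5, a co-chaperone that lowers receptor affinity, was at 57.2, 60.9, 50.7 and 55.3 CPM in the controls and 187, 168, 155 and 185 CPM on day 1 (log2 fold change 1.61 ± 0.0921 (SE), adjusted p = 3.69e-07). The kinase gene Sgk1 was at 47.8, 51.2, 46.4 and 54.9 CPM in the controls and 264, 225, 182 and 224 CPM on day 1 (log2 fold change 2.13 ± 0.11 (SE), adjusted p = 1.97e-07). Neither gene had overlapping groups. Nfkbia, the inhibitor of NF-kB, rose from 13 ± 0.481 to 49 ± 5.48 CPM (log2 fold change 1.84). Tsc22d3, the leucine zipper protein GILZ, rose by 1.18 and the MAP kinase phosphatase gene Dusp1 by 1.19 on the log2 scale. Nr3c2, the mineralocorticoid receptor, did not pass (-0.17, adjusted p = 0.146).

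All 8 transcription factors of the glucocorticoid list rose. Hif3a, a hypoxia-inducible factor subunit, was at 2.48, 3.56, 2.05 and 3.34 CPM in the controls and 24.5, 23.9, 22.7 and 21.6 CPM on day 1 (log2 fold change 2.66 ± 0.14 (SE), adjusted p = 2.55e-07). Cebpd, a basic leucine zipper factor of acute inflammation, rose from 8.48 ± 0.947 to 30.4 ± 6.48 CPM (log2 fold change 1.71), and Klf15 from 21.3 ± 1.01 to 57.7 ± 8.18 CPM (1.39). Per1, which belongs to the clock as well, rose by 1.36. Of the 20 growth and metabolism genes of the list, 19 rose, and Mertk did not pass (0.26, adjusted p = 0.0677). Map3k6, a stress kinase gene, was at 1.47, 2.03, 2.61 and 2.1 CPM in the controls and 26.4, 42.3, 30.3 and 24.3 CPM on day 1 (log2 fold change 3.36 ± 0.18 (SE), adjusted p = 2.00e-07). Pla2g3, a secreted phospholipase, rose from 1.39 ± 0.465 to 14.3 ± 2.32 CPM (2.69), and the sulfotransferase gene Sult1a1 from 4.34 ± 0.7003 to 16.5 ± 5.13 CPM (1.68).

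A palindromic glucocorticoid response element, taken as GAACA and TGTTC separated by 3 bases, was searched on both strands in the 250 bases before the starts of RefSeq genes (GRCm38.p6). It occurred in 1 of the 32 list members with a promoter in that table and in 0.037% of all 27025 genes there. The holder was Sgk1, whose promoter at chr10:21993640-21993889 (plus strand, 1 of 6 for this gene) is shown because Sgk1 is among the largest increases of the list, with the element in capitals.
Sgk1: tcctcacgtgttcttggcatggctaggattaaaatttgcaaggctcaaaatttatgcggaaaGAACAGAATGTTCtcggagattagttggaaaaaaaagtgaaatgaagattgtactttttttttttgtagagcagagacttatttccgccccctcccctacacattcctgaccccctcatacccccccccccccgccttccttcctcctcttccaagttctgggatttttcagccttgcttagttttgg

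Metallothioneins are small proteins that bind zinc and copper, and their genes respond to metals, glucocorticoids and cytokines. Mt1 was at 148, 124, 141 and 138 CPM in the controls and 482, 529.8, 503 and 444 CPM on day 1 (log2 fold change 1.83 ± 0.0884 (SE), adjusted p = 1.12e-07). Mt2 was at 53.5, 52, 55.6 and 37.4 CPM in the controls and 181, 232, 242 and 256 CPM on day 1 (log2 fold change 2.18 ± 0.14 (SE), adjusted p = 8.32e-07). The groups of both genes were separate, and Mt3, the neuronal form, did not pass (-0.25, adjusted p = 0.251). Reads of Mt2 cannot be assigned with certainty, because 73.5% of its exon bases are overlapped by an antisense gene. Among zinc importers, Slc39a14 rose from 33.8 ± 0.891 to 61.3 ± 6.05 CPM (0.83) and Slc39a10 fell from 102 ± 8.94 to 46.2 ± 2.99 CPM (log2 fold change -1.13 ± 0.0915 (SE), adjusted p = 5.48e-06). Of 11 iron genes tested, 4 rose and 1 fell: besides Lcn2, the transferrin receptor gene Tfrc rose by 0.73, the heme oxygenase gene Hmox1 by 0.92 and the ferroxidase gene Heph by 0.53, while the ferritin genes Fth1 (0.068) and Ftl1 (0.081) did not pass. Heph was called in 4 of the 8 fits that left out a library.

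Metal response elements, searched as TGCACNC or TGCGCNC, lay in the promoters of 2 of the 3 metallothionein genes, Mt1 and Mt2, and in those of 23.8% of all genes in the RefSeq table. The promoters of both genes (GRCm38.p6, plus strand, Mt2 at chr8:94172368-94172617 and Mt1 at chr8:94178839-94179088) are shown for the pair of neighbouring genes that rose together, with the elements in capitals.
Mt2: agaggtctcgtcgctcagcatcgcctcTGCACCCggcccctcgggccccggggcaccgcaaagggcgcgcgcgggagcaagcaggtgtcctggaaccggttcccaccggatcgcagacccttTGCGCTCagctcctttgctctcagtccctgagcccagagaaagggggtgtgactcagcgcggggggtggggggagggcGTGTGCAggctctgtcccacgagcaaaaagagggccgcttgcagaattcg
Mt1: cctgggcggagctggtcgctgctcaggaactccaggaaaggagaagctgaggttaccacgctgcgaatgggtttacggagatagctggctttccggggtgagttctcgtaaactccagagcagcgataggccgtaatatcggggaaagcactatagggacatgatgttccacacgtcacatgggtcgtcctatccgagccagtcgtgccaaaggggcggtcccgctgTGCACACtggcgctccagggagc

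Most cytokine genes were near the lower limit of measurement, and the increases among the genes tested were in receptors and signal transducers. Only 6 of 17 listed ligands averaged 5 CPM or more, and 3 of these fell and 0 rose. Cxcl12, a chemokine of endothelium and neurons, was at 51.3, 53.1, 53.5 and 53.7 CPM in the controls and 16.1, 25.2, 19.3 and 13 CPM on day 1 (log2 fold change -1.51 ± 0.16 (SE), adjusted p = 3.53e-05). Il33, an alarmin of oligodendrocytes and astrocytes, fell from 51.3 ± 7.93 to 25.3 ± 3.23 CPM (-0.99). The inflammatory ligands stayed low, with Il1b at 0.339, 0.156, 0.0427 and 0.412 CPM in the controls and 0.0393, 0.385, 0.147 and 0.194 CPM on day 1, Il6 at 0, 0.0391, 0 and 0 CPM in the controls and 0.0393, 0.0385, 0 and 0.0388 CPM on day 1, and Ccl2 at 0.151, 0.274, 0.256 and 0.0375 CPM in the controls and 1.22, 2.04, 2.1 and 0.892 CPM on day 1.

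Of 19 cytokine receptor genes tested, 7 rose and 2 fell. Osmr, the oncostatin M receptor, was at 6.85, 9.38, 7.09 and 6.37 CPM in the controls and 39.97, 29.6, 25.5 and 27.2 CPM on day 1 (log2 fold change 1.90 ± 0.15 (SE), adjusted p = 5.15e-06). Il4ra rose from 5.8 ± 0.647 to 15.9 ± 2.22 CPM (1.31), and the TNF receptor gene Tnfrsf1a from 9.21 ± 2.63 to 24.3 ± 6.38 CPM (1.30). The interleukin 1 receptor gene Il1r1 rose by 0.99, and Il6ra by 0.95. The shared subunit Il6st did not pass (-0.17). In transduction, 6 of 21 genes rose and 2 fell. Socs3, which dampens JAK-STAT signalling, was at 2.22, 3.01, 3.93 and 1.8 CPM in the controls and 28.7, 21.4, 18.9 and 12.8 CPM on day 1 (log2 fold change 2.50 ± 0.23 (SE), adjusted p = 1.52e-05). Stat3 rose from 56.4 ± 3.06 to 101 ± 10.9 CPM (0.82) and Rela, an NF-kB subunit, by 0.62. Socs3 averaged under 5 CPM in the controls and entered the test only through its day 1 values.

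A STAT site, TTC and GAA separated by 3 bases, lay in the promoters of 5 of 36 cytokine signalling genes (13.9%) and of 8.13% of all genes. An NF-kB site, GGGA and TTTCC separated by 1 base, lay in 2 of the 36 and in 0.414% of all genes. The Socs3 promoter at chr11:117969367-117969616 (GRCm38.p6, minus strand) is shown because Socs3 was the transducer that rose most.
Socs3: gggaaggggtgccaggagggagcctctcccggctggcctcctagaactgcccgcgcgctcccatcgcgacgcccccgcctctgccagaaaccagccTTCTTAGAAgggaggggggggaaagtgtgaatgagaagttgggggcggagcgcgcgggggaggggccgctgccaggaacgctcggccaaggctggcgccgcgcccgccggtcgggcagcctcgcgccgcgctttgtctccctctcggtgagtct

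Of 53 listed interferon-stimulated genes 20 were tested, 2 rose and 1 fell, where 13.3% and 13.4% of all genes did, and the median log2 fold change was 0.13. Of the 5 antiviral members tested 0 were called, with limma's adjusted p for Ifit3 at 0.44 (log2 fold change -0.30) and for Ddx58 at 0.838 (0.050). Irgm1, an immunity-related GTPase, rose from 10.5 ± 2.72 to 18.1 ± 3.99 CPM (0.74), and Ifitm2 from 3.8 ± 1.41 to 11.2 ± 4.28 CPM (1.33), the latter with 48.5% of its 50-base stretches shared with another gene. Ifitm2 entered the test only through its day 1 values. An interferon element, GAAA and GAAA separated by 2 bases, lay in the promoters of 7 of 17 members and of 3.46% of all genes. Of 23 complement genes 12 were tested, of which the receptor gene Cd93 rose (0.69, called in 3 of the 8 fits that left out a library) and Itgam fell (-0.76), with 72.4% of the 50-base stretches of Itgam shared. C1qa (0.071), C3 (0.12) and C4b (0.22) did not pass. The receptor genes C3ar1 and C5ar1 lay below the minimum and were not tested. They averaged 2.28 and 0.68 CPM in the controls and 4.75 and 4.44 CPM on day 1, with separate groups. In the other complement genes under the minimum the groups overlapped.

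Many transcripts that mark the surveying state of microglia, the resident macrophages of the brain, were lower on day 1. Of 22 homeostatic genes tested, 14 fell and 2 rose, with a median log2 fold change of -0.48 (0.15 over the members that averaged at least 50 CPM). Among receptors, Cx3cr1, which binds neuronal fractalkine, was at 53.2, 50.3, 48.4 and 43.9 CPM in the controls and 15.6, 17.6, 20.8 and 11.8 CPM on day 1 (log2 fold change -1.54 ± 0.14 (SE), adjusted p = 1.67e-05). P2ry12, the ADP receptor that guides processes, was at 20.02, 25, 19.1 and 17.7 CPM in the controls and 5.23, 5.16, 5.59 and 4.58 CPM on day 1 (log2 fold change -1.80 ± 0.13 (SE), adjusted p = 2.03e-06). Both receptors were lower in every day 1 library than in any control. Siglech fell from 10.4 ± 1.67 to 3.72 ± 0.261 CPM (-1.26), as did Fcrls (-1.23) and Trem2 (-0.70). Csf1r fell less (-0.39, called in 3 of 8 fits that left out a library). Among the others, Olfml3, a secreted matrix protein, was at 20.2, 21.5, 23.5 and 19.1 CPM in the controls and 2.67, 6.93, 5.04 and 2.02 CPM on day 1 (log2 fold change -2.20 ± 0.25 (SE), adjusted p = 6.97e-05), and Tmem119 fell from 21.8 ± 3.56 to 8.88 ± 4.73 CPM (-1.32). Sparc (0.51) and Adgrg1 (0.47), which other cells also express, rose, and Ctss (0.24) and Cst3 (0.15) did not pass.

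Activation genes of microglia rose where they were called. Of 19 tested, 6 rose and 0 fell, with a median of 0.26. Cd14 and Tlr7 averaged under 5 CPM in the controls and entered the test only through their day 1 values. Cd14, the coreceptor for bacterial lipopolysaccharide, was at 2.71, 3.63, 4.15 and 3.07 CPM in the controls and 49.4, 47.5, 13.8 and 17.4 CPM on day 1 (log2 fold change 2.71 ± 0.34 (SE), adjusted p = 0.000154). All 4 day 1 values exceeded the highest control value of Cd14. The Fc receptor gene Fcgr3 rose from 13.7 ± 3.12 to 34.8 ± 4.14 CPM (1.30), the RNA sensor Tlr7 from 2.1 ± 0.449 to 9.01 ± 2.13 CPM (1.67) and osteopontin, Spp1, from 8.12 ± 4.26 to 24.3 ± 7.8 CPM (1.55). Lysosomal and antigen presentation genes such as Cd68 (0.17) and Cd74 (-0.10) did not pass. Neutrophil markers were low in all libraries, with S100a8 at 0.0376, 0.117, 0 and 0 CPM in the controls and 0.747, 1.16, 0.515 and 0.465 CPM on day 1 and S100a9 at 0.0753, 0.0391, 0.299 and 0.0375 CPM in the controls and 4.13, 4.74, 1.47 and 1.24 CPM on day 1.

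Reactive astrocyte genes rose where they were called. Of 22 tested, 12 rose and 0 fell, and the median was 0.76. In the pan-reactive set 6 of 8 rose. Serpina3n, a serine protease inhibitor of reactive astrocytes, was at 78.2, 85.8, 83.2 and 68.7 CPM in the controls and 265, 223, 262 and 139.6 CPM on day 1 (log2 fold change 1.44 ± 0.17 (SE), adjusted p = 9.95e-05). Gfap, the intermediate filament, rose from 641 ± 90.3 to 893 ± 84.9 CPM (log2 fold change 0.48 ± 0.11 (SE), adjusted p = 0.00675), and Vim from 55 ± 12.5 to 91.9 ± 20.2 CPM (0.73). Aspg, an asparaginase, rose from 3.71 ± 0.465 to 14.7 ± 8.97 CPM (1.58) and entered the test only through its day 1 values. Of the genes described as induced by inflammation, Fbln5 rose by 1.64 and Srgn by 1.57, while Serping1 at 4.4, 5.63, 7.57 and 4.8 CPM in the controls and 6.37, 26.6, 22.8 and 5.78 CPM on day 1 did not pass (log2 fold change 1.05 ± 0.40 (SE), adjusted p = 0.0675).

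Genes of normal astrocyte function split. Of 34 tested, 4 rose and 11 fell, with a median of -0.063. The water channel gene Aqp4 was at 87.9, 103, 89.5 and 61.3 CPM in the controls and 51.2, 40.8, 38.8 and 47.8 CPM on day 1 (log2 fold change -0.90 ± 0.15 (SE), adjusted p = 0.000816). The potassium channel Kcnj16 fell from 16.7 ± 3.21 to 8.92 ± 1.42 CPM (-0.83), and the gap junction gene Gja1 from 102 ± 11.6 to 61.7 ± 2.81 CPM (-0.71). Gjb6, the other astrocytic connexin, rose from 32.2 ± 3.35 to 59.7 ± 3.71 CPM (0.87). The glutamate transporters Slc1a2 (-0.19) and Slc1a3 (-0.068) and the glutamine synthetase gene Glul (0.22) did not pass.

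Oligodendrocyte genes fell widely. Oligodendrocytes wrap axons in myelin, a membrane rich in cholesterol and galactolipids. Of 42 genes tested, 26 fell and 1 rose, and the median was -0.62 (-0.27 over the members that averaged at least 50 CPM). Beside Ugt8a, the gap junction gene Gjb1 fell from 17.9 ± 2.45 to 5.06 ± 1.43 CPM (-1.67), and Fa2h, which hydroxylates myelin fatty acids, from 33.4 ± 3.98 to 15 ± 4.61 CPM (-1.15). Among myelin proteins 9 of 16 fell. Ermn, a cytoskeletal protein, was at 63.4, 76.9, 53.9 and 39.3 CPM in the controls and 23.6, 15.4, 17.6 and 20.4 CPM on day 1 (log2 fold change -1.53 ± 0.18 (SE), adjusted p = 9.95e-05). Mog fell from 47.1 ± 4.09 to 18.5 ± 4.01 CPM (-1.33). Mbp (-0.13, adjusted p = 0.415), Mobp (-0.032) and Mal (-0.11) did not pass. Among regulators, Gpr17, a receptor of differentiating oligodendrocytes, was at 27.6, 23.6, 32.8 and 31.6 CPM in the controls and 3.42, 9.21, 10.01 and 6.28 CPM on day 1 (log2 fold change -1.94 ± 0.24 (SE), adjusted p = 0.000128). Lpar1 fell by 1.49 on the log2 scale, the lineage factor Sox10 fell by 0.78 and Olig2 fell by 0.61. The paranodal gene Hapln2 was the member that rose (0.54). In precursors, 7 of 14 genes fell and Pdgfra rose (0.47); Sox6 fell by 0.89, and Cspg4 (-0.34) did not pass.

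**Figure D2:**
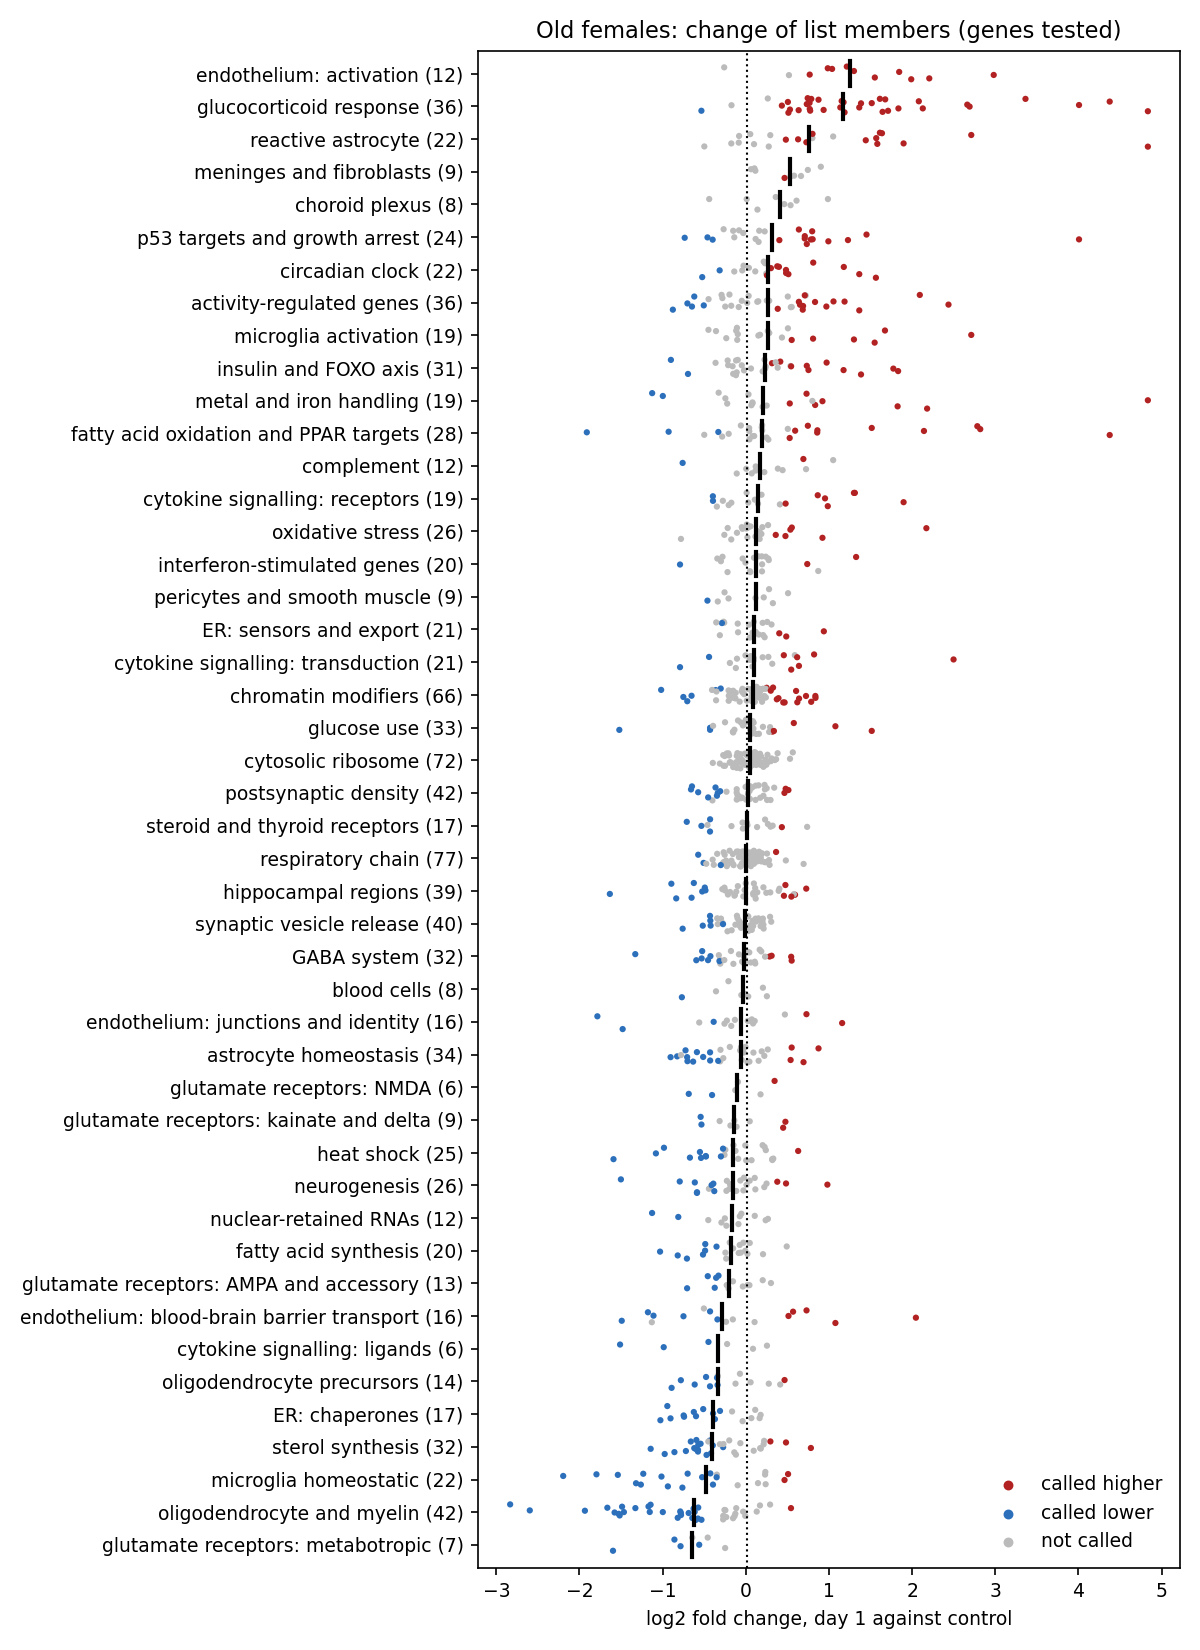
Log2 fold change on day 1 of every tested member of each gene list, 1 row per list or part of a list, sorted by median. Points are genes (red, called higher; blue, called lower; grey, not called), black bars are list medians and the dotted line is the median of all 11745 genes; the glucocorticoid and reactive astrocyte lists sit to the right and the oligodendrocyte and homeostatic microglia lists to the left.

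Most of the cholesterol synthesis genes called were lower. Of 32 tested, 17 fell and 3 rose, with a median of -0.41. In the steps from acetyl-CoA to squalene 6 of 10 fell and 0 rose. Hmgcs1, which makes HMG-CoA, fell from 129 ± 8.07 to 84 ± 7.12 CPM (-0.62), and Idi1 from 21.8 ± 2.75 to 13.6 ± 2.77 CPM (-0.66). In the steps from squalene to cholesterol 7 of 11 fell, with Msmo1 at 72.4, 87, 65.5 and 68.1 CPM in the controls and 34.6, 27.8, 41.7 and 44.3 CPM on day 1 (log2 fold change -0.98 ± 0.14 (SE), adjusted p = 0.000382). Lss (0.48) and Tm7sf2 (0.30) rose, the latter called in 3 of the 8 leave-one-out fits. Among regulators, Stard4, which carries cholesterol between membranes, fell from 20.4 ± 3.68 to 8.68 ± 1.67 CPM (-1.14), and the exporter Abca1 rose from 34.9 ± 3.19 to 61 ± 7.57 CPM (0.78). A sterol response element, TCAC and CCAC separated by 1 base, lay in 1 of 24 member promoters, that of Hmgcs1, and in 1.22% of all genes. In fatty acid synthesis 7 of 20 genes fell and 0 rose, with Elovl6 at 48.7, 52, 44.5 and 43.9 CPM in the controls and 20.4, 21.1, 24.6 and 24.5 CPM on day 1 (log2 fold change -1.03 ± 0.10 (SE), adjusted p = 2.41e-05) and Fasn (-0.085) not passing.

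Several genes of lipid storage and breakdown rose. Plin4, a coat protein of lipid droplets, was at 5.27, 4.81, 5.47 and 3.6 CPM in the controls and 77.3, 167, 118 and 128 CPM on day 1 (log2 fold change 4.38 ± 0.20 (SE), adjusted p = 8.25e-08). Pnpla2, the lipase that opens triglyceride breakdown, was at 12.9, 11.6, 14.9 and 13.5 CPM in the controls and 97.8, 108, 99.7 and 91.2 CPM on day 1 (log2 fold change 2.82 ± 0.10 (SE), adjusted p = 6.03e-09). The groups of both genes were far apart, and Pnpla2 varied little within each. Angptl4, an inhibitor of lipoprotein lipase, rose from 1.93 ± 0.376 to 20.4 ± 8.22 CPM (2.79), the mitochondrial carrier Ucp2 from 14.4 ± 6.61 to 64.7 ± 16.2 CPM (2.14) and Pdk4, which closes pyruvate dehydrogenase, from 7.44 ± 1.16 to 23.4 ± 5.46 CPM (1.51). In that group of 11 storage and signal genes 6 rose, and Fabp7, a fatty acid binding protein of glial progenitors, fell from 9.71 ± 0.817 to 1.87 ± 0.5001 CPM (-1.91). Plin4 and Angptl4 averaged under 5 CPM in the controls and entered the test only through their day 1 values. Of 17 oxidation genes, 4 rose and 2 fell. Among ketone genes, Bdh1 rose by 0.53 on the log2 scale and Oxct1, which uses ketones, fell from 192 ± 15.8 to 100.2 ± 9.03 CPM (-0.93). Cpt1a did not pass (0.51, adjusted p = 0.0393).

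Glycolysis genes were largely level: of 20 tested, Slc2a1 and Pfkfb3 rose and 0 fell, Pfkfb3 being called in 1 of the 8 fits that left out a library, with a median of 0.056. The glucose carrier gene Slc2a4, the listed member not tested, lay below the minimum. It was at 0.527, 0.782, 0.812 and 0.6 CPM in the controls and 4.83, 8.48, 5.7 and 6.2 CPM on day 1. Slc2a1, the glucose carrier of the blood-brain barrier, was at 58.2, 49.8, 65.2 and 55.8 CPM in the controls and 116, 147, 134 and 95.5 CPM on day 1 (log2 fold change 1.08 ± 0.13 (SE), adjusted p = 0.000104). The lactate carrier gene Slc16a7, which neurons use, was at 20.2, 22.6, 17.2 and 16.1 CPM in the controls and 5.97, 7.13, 6.22 and 4.62 CPM on day 1 (log2 fold change -1.52 ± 0.15 (SE), adjusted p = 2.09e-05). Pdk2, a pyruvate dehydrogenase kinase, rose (0.58) and Pdhb fell (-0.43). In the insulin and FOXO list 10 of 31 rose and 2 fell. Igfbp7 rose from 8.27 ± 2.15 to 31.6 ± 10.9 CPM (1.77), Irs2 from 90.04 ± 11.6 to 177 ± 20.8 CPM (0.97) and Txnip, which limits glucose uptake, from 18.7 ± 1.38 to 74.5 ± 32.1 CPM (log2 fold change 1.83 ± 0.24 (SE), adjusted p = 0.000189), while Akt2 fell from 81.2 ± 8.52 to 43.1 ± 5.85 CPM (-0.90).

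Of 24 growth arrest and p53 target genes, 12 rose and 3 fell. Beside Cdkn1a, the p53 target Trp53inp1 rose from 6.46 ± 1.73 to 13.6 ± 1.27 CPM (0.99), and Sesn2 by 0.80. Mdm2 (0.23) and Bax (0.16), which p53 also induces, did not pass. The p53 targets Fas, Tnfrsf10b, Pmaip1 and Bbc3 lay below the minimum and were not tested. Their control means were 0.897, 0.364, 1.33 and 3.18 CPM, and their day 1 means 3.36, 1.74, 4.03 and 5.45 CPM. The groups did not overlap in these genes, but did in Eda2r and Gtse1, which were also under the minimum. Gadd45g rose from 8.27 ± 1.6 to 21.2 ± 6.52 CPM (1.23), Ier3 by 1.45, and the survival genes Bcl2l1 by 0.78 and Mcl1 by 0.71.

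Endothelial genes divided by role. Of 19 listed activation genes 12 were tested, of which 10 rose and 0 fell, with a median of 1.26. Lrg1, Apold1, Angpt2 and Icam1 averaged under 5 CPM in the controls and entered the test only through their day 1 values. The count and the median are therefore set in part by the minimum. Lrg1, a secreted glycoprotein of inflamed vessels, was at 0.151, 0.274, 1.2 and 0.487 CPM in the controls and 7.59, 20.6, 12.9 and 6.24 CPM on day 1 (log2 fold change 2.98 ± 0.32 (SE), adjusted p = 4.56e-05). Apold1 rose from 1.95 ± 0.468 to 12.7 ± 2.5 CPM (2.21), Angpt2, which loosens vessels, from 1.33 ± 0.516 to 9.46 ± 5.55 CPM (1.99), and the adhesion gene Icam1 from 3.58 ± 0.789 to 13.3 ± 5.8 CPM (1.55). Vcam1 did not pass (-0.26). Selp, the P-selectin gene, was at 0, 0, 0 and 0.075 CPM in the controls and 0.432, 4.47, 1.29 and 0.233 CPM on day 1, under the minimum for testing. Of 16 identity genes, 3 fell and 2 rose. The angiopoietin receptor gene Tek was at 8.24, 9.3, 9.62 and 8.7 CPM in the controls and 1.85, 1.7, 2.65 and 1.47 CPM on day 1 (log2 fold change -1.78 ± 0.16 (SE), adjusted p = 1.00e-05). Kdr, the main VEGF receptor, fell from 14.9 ± 1.94 to 4.68 ± 0.199 CPM (-1.48), and the adherens junction gene Cdh5 rose from 11.4 ± 1.8 to 27.1 ± 6.82 CPM (1.16). The pan-endothelial genes Cldn5 (0.11) and Pecam1 (-0.23) did not pass. Among 16 transport genes 5 rose and 6 fell. Mfsd2a, the lipid carrier that restrains transcytosis, was at 9.67, 9.15, 9.45 and 9.18 CPM in the controls and 45.8, 44.6, 31.4 and 47.4 CPM on day 1 (log2 fold change 2.05 ± 0.13 (SE), adjusted p = 7.81e-07). Slco1c1, a thyroid hormone carrier, was at 28.8, 29.1, 44.6 and 22.9 CPM in the controls and 9.001, 8.75, 14.1 and 9.66 CPM on day 1 (log2 fold change -1.49 ± 0.19 (SE), adjusted p = 0.000159). The drug pump gene Abcb1a fell from 22.2 ± 1.46 to 9.85 ± 1.82 CPM (-1.11), with 17% of its 50-base stretches shared. In pericytes and smooth muscle, Rgs5 fell (-0.46) and the other 8 genes tested did not pass.

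Chaperone genes of the endoplasmic reticulum fell together. These proteins fold secreted and membrane proteins, and their genes are raised by the unfolded protein response. Of 17 tested, 11 fell and 0 rose, with a median of -0.39. Pdia4, a disulfide isomerase, was at 39.6, 38.5, 42.7 and 34.7 CPM in the controls and 20.4, 23.4, 21.5 and 14.6 CPM on day 1 (log2 fold change -0.94 ± 0.13 (SE), adjusted p = 0.000343). Pdia6 was at 85.3, 85.3, 91 and 87.8 CPM in the controls and 55.6, 48.4, 40.7 and 41.4 CPM on day 1 (log2 fold change -0.91 ± 0.10 (SE), adjusted p = 7.62e-05). Sdf2l1 fell from 10.5 ± 1.17 to 4.64 ± 0.687 CPM (-1.03), and the lectin chaperone Calr from 329 ± 9.4 to 198 ± 25.1 CPM (-0.74). Hspa5, the chaperone BiP, was at 209.6, 213, 232 and 205 CPM in the controls and 167, 131, 127 and 133 CPM on day 1 (log2 fold change -0.62 ± 0.10 (SE), adjusted p = 0.000673). In these genes the day 1 libraries lay below the controls without overlap. The sensors and export genes were mixed, with 3 of 21 rising and 1 falling: Ppp1r15a rose from 12.6 ± 1.98 to 24.8 ± 1.32 CPM (0.94), whereas Atf4 (-0.31), Ddit3 (-0.27) and Xbp1 (-0.26) did not pass.

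The ER stress response element, CCAAT and CCACG separated by 9 bases, was found on either strand in the promoters of 7 of the 15 chaperone genes in the RefSeq table (46.7%) and of 0.13% of all 27025 genes. Of the 9 chaperone genes that fell and have a promoter there, 6 held it: Pdia6, Creld2, Calr, Hspa5, Hsp90b1 and Canx. The 4 with the largest decrease are shown (GRCm38.p6; Pdia6 at chr12:17266339-17266588, plus strand; Creld2 at chr15:88819396-88819645, plus strand; Calr at chr8:84846932-84847181, minus strand; Hspa5 at chr2:34771840-34772089, plus strand) with the element in capitals, which begins between 65 and 162 bases before the start.
Pdia6: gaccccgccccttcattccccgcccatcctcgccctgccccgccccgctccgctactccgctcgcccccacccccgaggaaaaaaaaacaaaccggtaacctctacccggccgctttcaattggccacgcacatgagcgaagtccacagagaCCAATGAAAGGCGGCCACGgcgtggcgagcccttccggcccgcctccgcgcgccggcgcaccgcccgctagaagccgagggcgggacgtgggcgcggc
Creld2: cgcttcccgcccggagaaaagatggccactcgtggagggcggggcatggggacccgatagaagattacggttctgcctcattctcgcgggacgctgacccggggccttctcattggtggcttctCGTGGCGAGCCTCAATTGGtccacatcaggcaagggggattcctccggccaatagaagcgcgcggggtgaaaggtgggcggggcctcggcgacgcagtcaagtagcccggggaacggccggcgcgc
Calr: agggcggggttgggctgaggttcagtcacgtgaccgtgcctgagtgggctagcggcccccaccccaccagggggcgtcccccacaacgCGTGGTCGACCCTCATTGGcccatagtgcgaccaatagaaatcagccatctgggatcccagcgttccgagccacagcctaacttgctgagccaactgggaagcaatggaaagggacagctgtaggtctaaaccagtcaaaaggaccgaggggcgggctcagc
Hspa5: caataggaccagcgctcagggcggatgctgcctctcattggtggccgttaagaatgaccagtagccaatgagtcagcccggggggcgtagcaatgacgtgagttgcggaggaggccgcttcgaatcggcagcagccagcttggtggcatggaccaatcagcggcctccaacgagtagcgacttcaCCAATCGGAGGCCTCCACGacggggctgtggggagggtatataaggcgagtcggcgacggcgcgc

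Cytosolic heat shock proteins refold or hold client proteins. Of 25 of their genes tested, 10 fell and 1 rose, with a median of -0.15. Chordc1, a cochaperone of HSP90, was at 43.2, 51.2, 38.7 and 35 CPM in the controls and 12, 12.4, 15.3 and 13.1 CPM on day 1 (log2 fold change -1.59 ± 0.13 (SE), adjusted p = 4.39e-06). Hsph1, the HSP110 gene, was at 234, 266, 225 and 223 CPM in the controls and 120.1, 89.8, 112 and 127 CPM on day 1 (log2 fold change -1.08 ± 0.11 (SE), adjusted p = 3.32e-05). Both genes were separate between groups. Cryab, a small heat shock protein of oligodendrocytes and astrocytes, fell from 110.1 ± 12.9 to 55 ± 4.15 CPM (-0.98), and Bag3 rose by 0.63 (called in 5 of the 8 leave-one-out fits). The inducible genes Hspa1a (0.33) and Hspa1b (0.32) did not pass. A heat shock element, 3 alternating GAA and TTC units 2 bases apart, lay in 2 of 19 member promoters and in 0.514% of all genes, and 0 of the 8 called members with a promoter held it. Of 26 antioxidant genes, 6 rose and 0 fell, among them Gclc (0.55) and Gsr (0.54), while Nfe2l2 (0.17) and Txnrd1 (0.019) did not pass.

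**Figure D3:**
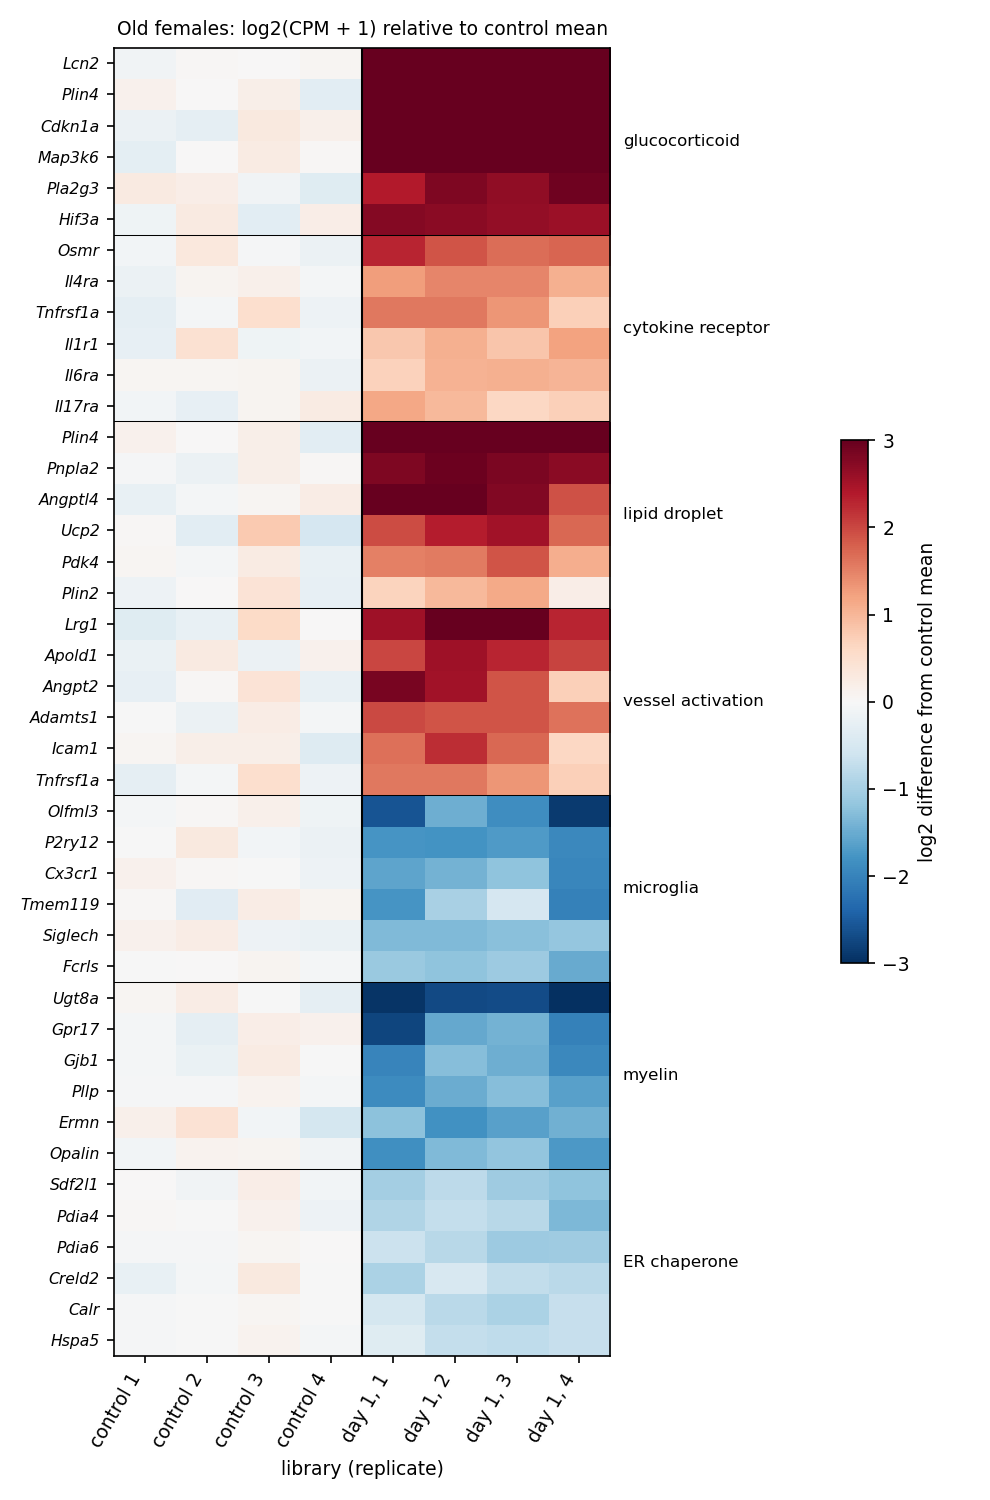
Log2(CPM + 1) in each of the 8 libraries, relative to the mean of the 4 controls, of 6 called members with the largest increase (4 upper blocks) or decrease (3 lower blocks) of each list, among the genes reported here. Columns are control replicates 1 to 4 and day 1 replicates 1 to 4, and colour runs from blue (lower) to red (higher) and saturates at 3 on either side. Plin4 and Tnfrsf1a are members of 2 lists and appear in both; the day 1 columns are close to each other in the chaperone block, with Pdia6 between 40.7 and 55.6 CPM, and less so for Angpt2 in the vessel block.

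Receptors for glutamate carry fast and modulatory excitation, and those for GABA inhibition. Of 35 glutamate receptor genes tested, 13 fell and 3 rose. Among metabotropic receptors 4 of 7 fell, with Grm3, the receptor of astrocytes and presynaptic endings, at 39.6, 43.6, 38.6 and 38.2 CPM in the controls and 11.4, 11.7, 15.3 and 12.1 CPM on day 1 (log2 fold change -1.60 ± 0.11 (SE), adjusted p = 1.72e-06). Grm7 fell from 41.4 ± 3.79 to 23.8 ± 4.13 CPM (-0.78), and Grm5 did not pass (-0.25). In the NMDA set, Grin3a fell from 35.3 ± 2.1 to 21.6 ± 2.13 CPM (-0.69) and Grin1 rose (0.35, called in 3 of the 8 leave-one-out fits). The AMPA subunit genes Gria1 (-0.21) and Gria2 (-0.23) did not pass. Of 15 GABA-A receptor and related genes, 4 fell and 0 rose. Gabra2 was at 42.4, 50.1, 31.8 and 37 CPM in the controls and 15.4, 11.1, 14.8 and 21.2 CPM on day 1 (log2 fold change -1.33 ± 0.18 (SE), adjusted p = 0.000218). Of 17 interneuron genes, 4 rose, among them Vip (0.55), and 3 fell, among them Nos1 (-0.53). Against the 13.4% of all genes that fell and the 13.3% that rose, in vesicle release 6 of 40 genes fell and 0 rose, with Unc13b falling from 43.1 ± 5.32 to 25.1 ± 3.37 CPM (-0.76). In the postsynaptic density, 8 of 42 fell and 3 rose, with Homer2 (-0.66) and Homer1 (-0.65) lower and Camk2b (0.48) higher.

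Activity-regulated genes, which neurons switch on within minutes to hours of firing, moved both ways. Of 36 tested, 13 rose and 5 fell. Cyr61, a matrix protein, was at 3.46, 3.52, 4.32 and 4.87 CPM in the controls and 33.8, 27.4, 14.4 and 12.7 CPM on day 1 (log2 fold change 2.09 ± 0.26 (SE), adjusted p = 0.000131). Maff rose from 0.871 ± 0.0902 to 9.31 ± 2.25 CPM (2.44). Both Cyr61 and Maff averaged under 5 CPM in the controls and entered the test only through their day 1 values. Fos was at 9.6, 5.79, 12.7 and 10.7 CPM in the controls and 30.9, 23.2, 11.6 and 16.3 CPM on day 1 (log2 fold change 0.97 ± 0.27 (SE), adjusted p = 0.0174), and its groups overlapped, since day 1 replicate 3 lay below control replicate 3; it was called in 6 of the 8 leave-one-out fits. Nr4a3 fell from 63.4 ± 5.12 to 34 ± 0.435 CPM (-0.88), Bdnf fell by 0.51 on the log2 scale, and Arc (-0.18) and Egr1 (-0.048) did not pass. In the clock list 11 of 22 rose and 2 fell: Cry1 was at 10.2, 11.2, 10.3 and 9.82 CPM in the controls and 26.6, 22.2, 21 and 30.4 CPM on day 1 (log2 fold change 1.18 ± 0.12 (SE), adjusted p = 4.09e-05), Ciart rose by 1.56, Clock fell by 0.31 (called in 5 of the 8 leave-one-out fits), and Arntl (-0.043) and Dbp (0.22) did not pass. The hour of killing is not given for either group, so these clock changes cannot be told apart from a difference in that hour. In neurogenesis, 4 of 10 progenitor and division genes fell and 0 rose. Ccnd1, the cyclin D1 gene, was at 57.9, 48.7, 52.3 and 56.6 CPM in the controls and 18.4, 19.6, 20.1 and 15.6 CPM on day 1 (log2 fold change -1.50 ± 0.10 (SE), adjusted p = 1.73e-06), with 23.4% of its exon bases overlapped by an antisense gene. Of 16 immature neuron genes 4 fell and 3 rose, and Dcx, the doublecortin gene of young neurons, did not pass (-0.022).

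Region markers did not shift as blocks. Of 12 dentate gyrus genes 2 rose and 4 fell, of 9 CA1 genes 1 rose and 2 fell, and of 9 CA2 and CA3 genes 1 rose and 1 fell. Of 9 thalamic and cortical genes tested, 1 rose and 1 fell. Prkcd, which marks thalamus, rose from 31.9 ± 8.26 to 45.9 ± 1.13 CPM (0.55, called in 5 of the 8 leave-one-out fits), Rorb fell from 10.9 ± 0.602 to 7.29 ± 0.794 CPM (-0.52), and Tcf7l2, another thalamic marker, was below the minimum. Of 66 chromatin modifier genes, 14 rose and 6 fell. The demethylases held 7 of the increases, with Kdm3a rising from 27.4 ± 2.21 to 49.9 ± 6.35 CPM (0.84) and Tet2 from 29 ± 3.78 to 51.3 ± 11.1 CPM (0.79). The methyltransferase gene Setd7 was at 168, 169, 157 and 166 CPM in the controls and 66.4, 81.3, 95 and 83.6 CPM on day 1 (log2 fold change -1.02 ± 0.10 (SE), adjusted p = 3.20e-05), and Kmt2b rose from 57.4 ± 10.03 to 102 ± 9.12 CPM (0.84). Among steroid and thyroid receptors and enzymes, 4 of 17 fell and 1 rose, with Srd5a1, which reduces progesterone and testosterone, falling from 8.68 ± 1.05 to 4.96 ± 1.01 CPM (-0.71) and Hsd11b1, which regenerates corticosterone, rising from 16.4 ± 1.74 to 22.4 ± 1.12 CPM (0.43). The estrogen receptor gene Esr1 was below the minimum. Of 12 nuclear-retained RNAs 2 fell; Neat1 was at 133, 127, 121 and 155 CPM in the controls and 24.2, 96.1, 115 and 49.3 CPM on day 1 and was called in 2 of the 8 fits that left out a library. Nuclear genes of the respiratory chain and cytosolic ribosomal protein genes were near level: 1 of 77 rose and 3 fell in the former (median 0.003), and 0 of 72 were called by limma in the latter, 7 of them lying under an unadjusted p of 0.05 (median 0.047).

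The change in old females was set beside that in young females and in old males on day 1, each against its own controls of 4 libraries. In the same 11745 genes, 576 were called in young females (306 higher, 270 lower) and 1012 in old males (463 higher, 549 lower). Whether the change itself differed was tested as an interaction over 16 libraries. It differed from young females in 1042 genes (8.87%), being more positive in old females in 457 (3.89%) and more negative in 585 (4.98%), and 473 of all genes lay under an adjusted p of 0.05, a count that was 215 without old female control replicate 1 and 1427 with all 12 groups in 1 fit. It differed from old males in 1930 genes (16.4%), more positive in 1003 (8.54%) and more negative in 927 (7.89%), with 1716 under an adjusted p of 0.05. Both interactions use the same 8 old female libraries, so they are not independent of each other.

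In the glucocorticoid list the change was larger in old females than in young females for 11 of 36 genes and smaller for 0, and larger than in old males for 19 and smaller for 0. The list median was 1.16 in old females, 0.65 in young females and 0.62 in old males. Against their own controls, 26 of the 36 genes rose and 0 fell in young females, and 27 rose and 2 fell in old males. Of all 11745 genes, 306 rose in young females and 463 in old males. For Dusp1 the log2 fold change was 1.19 in old females, -0.13 in young females and -0.14 in old males. Mt2 ranged from 40.6 to 80.1 CPM in control and from 66.6 to 103 CPM in day 1 libraries of young females, with a difference in log2 fold change of 1.53 ± 0.26 (SE), adjusted p = 0.00325. Against old males the difference of Mt2 was 1.57 ± 0.25 (SE), adjusted p = 0.000565. Pnpla2 ranged from 14.3 to 26.1 CPM in control and from 40.3 to 61.1 CPM in day 1 libraries of young females and from 10.4 to 12.5 CPM in control and from 25.4 to 38 CPM in day 1 libraries of old males, and its difference was 1.43 ± 0.21 (SE), adjusted p = 0.00151 for age. The day 1 values of Pnpla2 in both comparison groups thus stayed under the lowest old female value of 91.2 CPM.

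Considering differences at an adjusted p below 0.05 in genes averaging 20 CPM or more, Ctla2a had the largest positive difference from young females (2.42 ± 0.31 (SE), adjusted p = 0.000796), and Lcn2 the largest from old males (1.93 ± 0.50 (SE), adjusted p = 0.0148). Cdkn1a differed from young females by 1.44 ± 0.37 (SE), adjusted p = 0.0347. Arid5a, an RNA-binding regulator of inflammatory transcripts, was at 9.48, 8.76, 9.66 and 11.6 CPM in the controls and 39.5, 34.7, 22.2 and 28 CPM on day 1 in old females, and in young females it ranged from 10.4 to 15.3 CPM in control and from 13.1 to 15.6 CPM in day 1 libraries (1.39 ± 0.22 (SE), adjusted p = 0.00198). Armcx5, an X-linked armadillo repeat gene, was at 15.9, 18.5, 14.8 and 13.8 CPM in the controls and 57.8, 47.2, 43.7 and 58.5 CPM on day 1 in old females and ranged from 19 to 21.3 CPM in control and from 17.7 to 28.5 CPM in day 1 libraries in old males (1.54 ± 0.18 (SE), adjusted p = 0.000102), with 18.4% of its 50-base stretches shared with other genes. The log2 fold change of Arid5a was 0.15 in young females and 0.37 in old males, and that of Armcx5 was 0.29 in young females and 0.11 in old males.

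The largest negative differences by the same rule were in Lct, Cbfa2t3, Chordc1, Padi2, Ccnd1 and Ugt8a. Lct and Padi2 were among them against both young females and old males. Cbfa2t3 ranged from 32.5 to 76 CPM in control and from 37 to 48 CPM in day 1 libraries of young females and from 25.2 to 31.2 CPM in control and from 25.3 to 31.9 CPM in day 1 libraries of old males, with a difference of -1.52 ± 0.26 (SE), adjusted p = 0.0035 for age and -1.64 ± 0.14 (SE), adjusted p = 8.23e-06 for sex. Chordc1 ranged from 31.4 to 34.5 CPM in control and from 24.9 to 31.7 CPM in day 1 libraries of young females and from 37.3 to 43 CPM in control and from 29.7 to 51.6 CPM in day 1 libraries of old males, with a difference of -1.34 ± 0.16 (SE), adjusted p = 0.000367 for age and -1.64 ± 0.20 (SE), adjusted p = 0.000113 for sex. These ranges lay above the old female day 1 values of both genes. Padi2 fell by less in young females, where it ranged from 28 to 59.2 CPM in control and from 18.7 to 24.5 CPM in day 1 libraries (-1.22 ± 0.27 (SE), adjusted p = 0.0167). Ccnd1 differed by -1.18 ± 0.18 (SE), adjusted p = 0.00178 from young females. Lct ranged from 11.9 to 52.5 CPM in control and from 37.4 to 47.8 CPM in day 1 libraries of young females, where controls spread widely, with a difference of -1.98 ± 0.45 (SE), adjusted p = 0.0193. The log2 fold change of Ugt8a was -2.83 in old females, -1.69 in young females and -1.29 in old males, and its difference from old males was -1.54 ± 0.19 (SE), adjusted p = 0.000113.

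**Figure D4:**
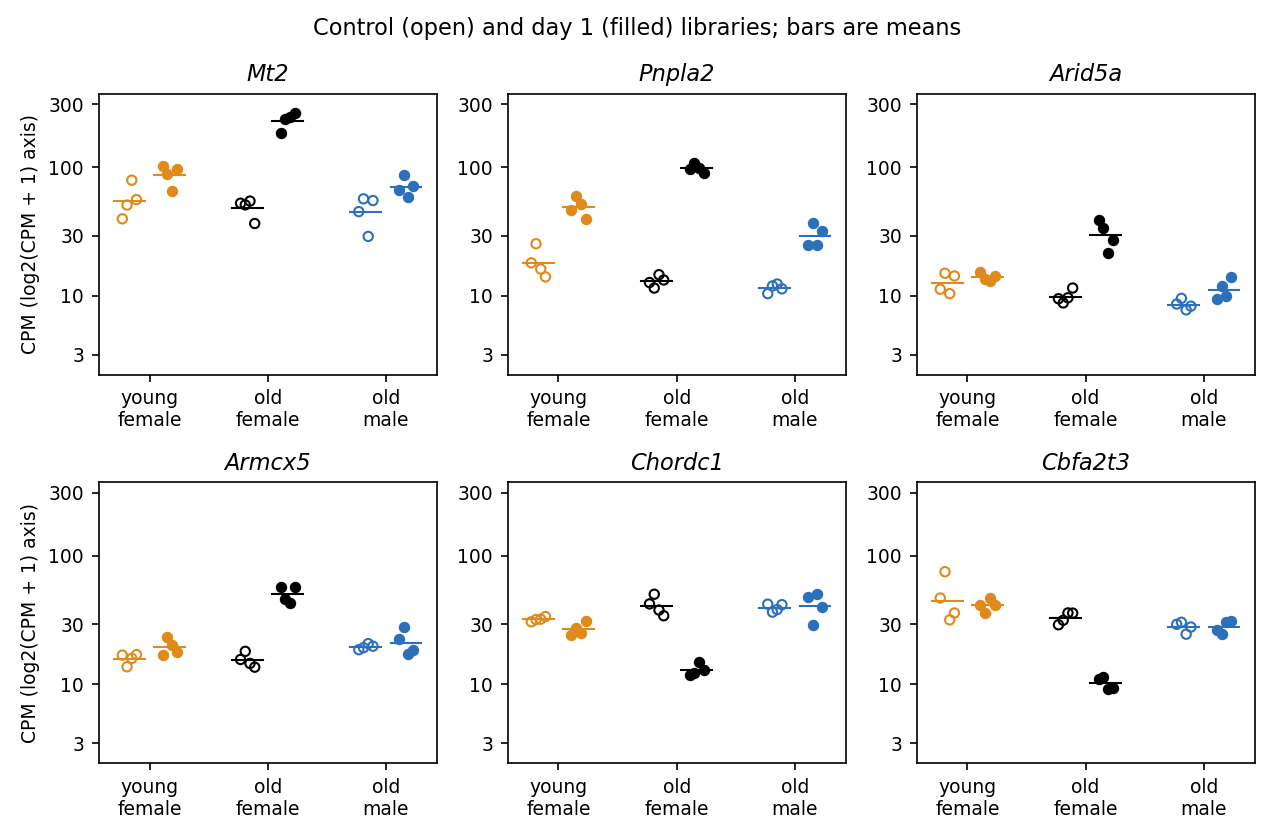
Expression, on a log2(CPM + 1) axis, of 6 genes with large differences between groups in the response, in control (open) and day 1 (filled) libraries of young females, old females and old males, 4 libraries each. Chordc1 and Cbfa2t3 drop on day 1 in the old females to below every point of the other groups; Arid5a and Armcx5 rise in old females, and Mt2 and Pnpla2 rise further there than elsewhere.

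The interactions are given by list beside the background of 3.89% of genes more positive and 4.98% more negative than in young females, and of 8.54% and 7.89% than in old males. In the metabotropic glutamate receptors 5 of 7 changes were more negative in old than in young females, and their median log2 fold change was -0.64 in old females, 0.053 in young females and -0.10 in old males. In activity-regulated genes 10 of 36 were more positive in old than in young females, Cyr61 among them (2.29 ± 0.35 (SE), adjusted p = 0.0019). In homeostatic microglial genes 8 of 22 were more negative in old females than in old males, and in oligodendrocyte genes 7 of 42. Against their own controls, 26 of the 42 oligodendrocyte genes fell in old females, 18 in young females and 27 in old males. For the 22 microglial genes these counts were 14, 7 and 6, and for all 11745 genes 1579, 270 and 549. In ER chaperones 5 of 17 were more negative than in old males and 2 of 17 than in young females, with medians of -0.39 in old females, -0.17 in young females and -0.017 in old males. The sterol synthesis medians in the same order were -0.41, -0.37 and -0.29, with 3 genes more positive and 1 more negative in old than in young females. Of the 32 sterol genes 17 fell in old females, 13 in young females and 18 in old males. Of the 12 complement genes 0 differed by limma in either interaction (2 at an unadjusted p below 0.05 in each), and C3 was at 12.7, 13.1, 14.5 and 5.88 CPM in the controls and 11.1, 10.8, 24.7 and 6.86 CPM on day 1 in old females.

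**Figure D5:**
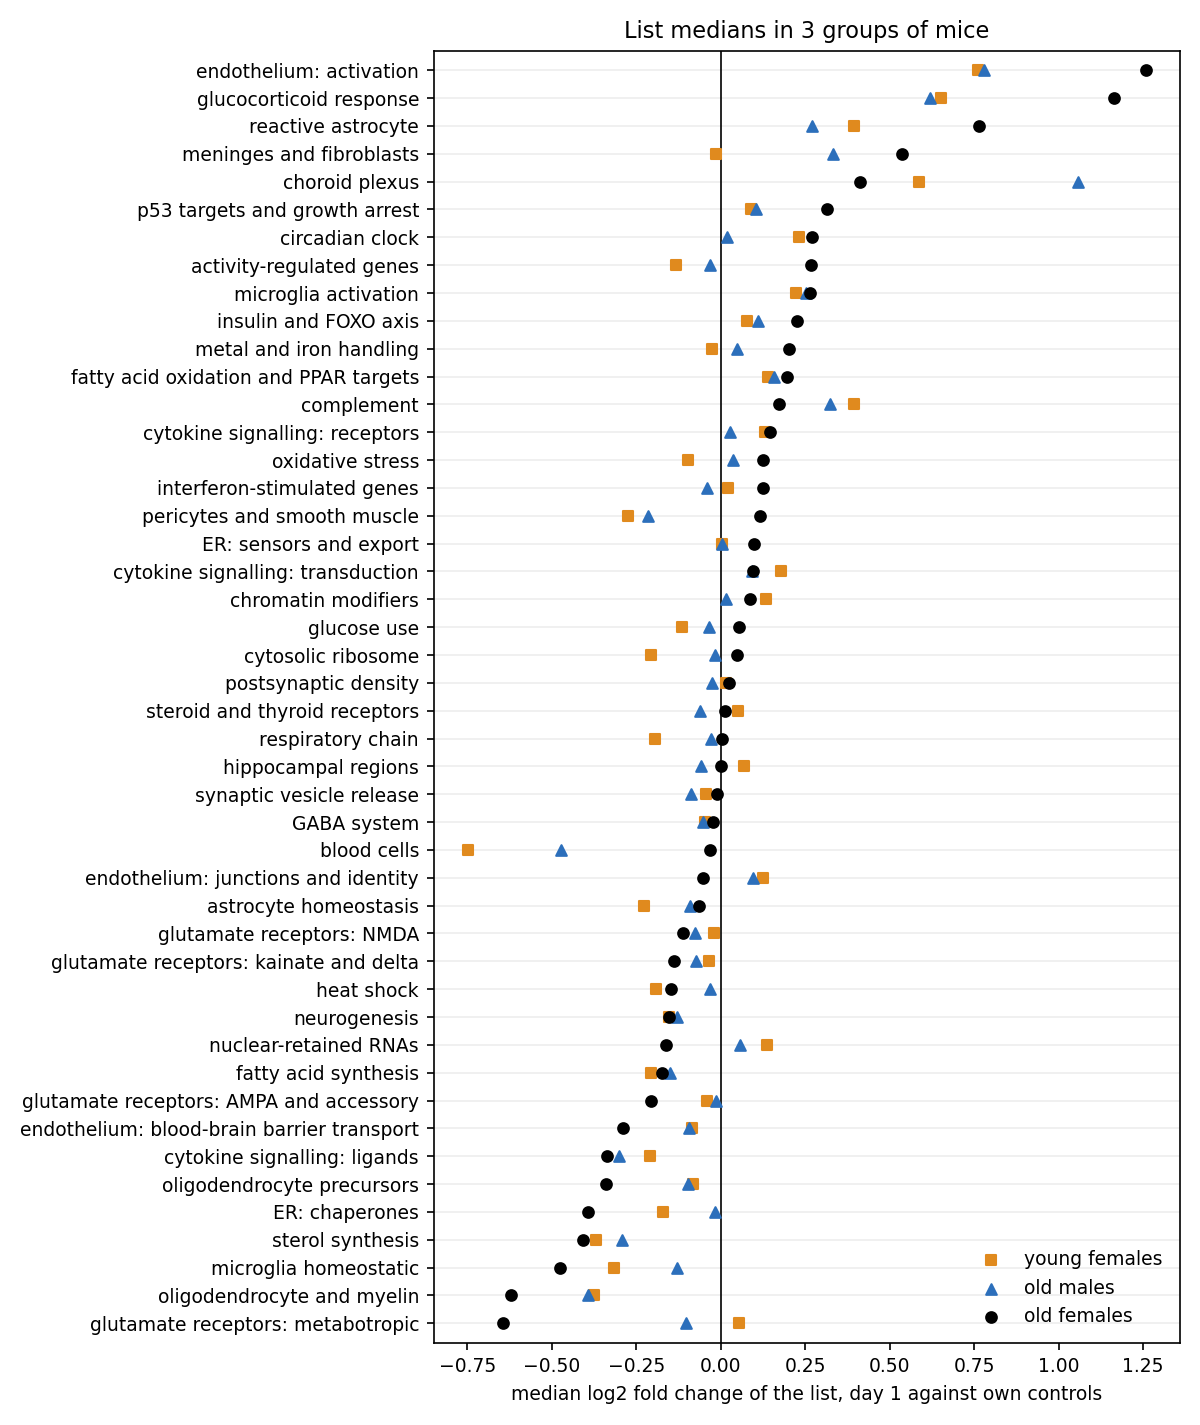
Median log2 fold change on day 1 of each gene list or part of a list in old females (black), young females (orange) and old males (blue), each against its own 4 control libraries. The old female point is the farthest right for the whole glucocorticoid and reactive astrocyte lists and the farthest left for the whole oligodendrocyte and homeostatic microglial lists and for metabotropic glutamate genes.

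Base composition moved with the calls. Genes tested were put into 5 equal groups by the GC content of their longest transcript. In the group with the least GC 5.88% rose and 16.4% fell, and in that with the most 18.8% rose and 7.69% fell. Across 11642 genes with an annotated transcript, the log2 fold change correlated with GC content at r = 0.183 (Spearman 0.206), a description over genes, which share the same libraries. The trend was uneven within the groups. Each library's deviation from the gene means correlated with GC content at -0.321, -0.565, 0.158 and 0.205 in control replicates 1 to 4. On day 1 these correlations were 0.0246, 0.472, 0.138 and -0.121. After removing the GC trend within each library 3749 genes were called, 2933 of them among the 3141. The medians were then 1.16 for the glucocorticoid list, -0.69 for oligodendrocyte genes and -0.35 for ER chaperones. The part of GC content in any single result was not tested.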

How the data were processed

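Poly(A) RNA of the hippocampus was made into whole transcriptome libraries (Ion Total RNA-Seq chemistry), 1 per mouse, and read on an Ion Proton. According to the labels and methods, the authors aligned reads to mm10 with STAR in Partek and deposited TMM-normalized CPM per gene. Tool versions, the counting rule and whether strand was used are not given in the sources used here, so reads of overlapping or near-identical genes could not be separated. In GENCODE vM21, matched to 27319 of 28032 symbols, at least 10% of exon bases or 50-base stretches lay in another gene for 596 of the 3141 genes called. Values are uncertain on this ground for the genes so marked in the text and for Akt2, Bax, Bdh1, Bdnf, C4b, Cebpd, Ciart, Cryab, Csf1r, Dbp, Ddit3, Fcgr3, Ftl1, Glul, Grin1, Hmgcs1, Hsp90b1, Hspa1a, Hspa1b, Icam1, Idi1, Ifit3, Oxct1, Spp1, Srd5a1, Tm7sf2 and Txnip.

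The deposited CPM values were analysed as log2(CPM + 1) in R 4.3.3 with limma 3.58.1 (variance trend, moderated statistic), tables were handled in Python 3.11.15 with pandas 2.3.3 and numpy 2.4.6, and figures were drawn with matplotlib 3.10.9. Only libraries of the groups compared entered a fit, genes averaged at least 5 CPM over the 8 old female libraries, and a call was an unadjusted p below 0.01, beside the Benjamini-Hochberg p over all 11745 genes. Between 81.8% and 83.3% of values in the 8 libraries were whole multiples (within 0.05) of the smallest repeated value, too few to recover read counts, so no count test was run and depth is an estimate. P-values measure the spread between these libraries, each from its own mouse. Sequences of promoters came from the RefSeq table of GRCm38.p6, the assembly that mm10 denotes.

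Genes were named if they were the 8 highest or 8 lowest called genes with separate groups and a mean of at least 20 CPM, the called members of each list with the largest change (up to 3 in each direction), the 5 largest positive and 5 largest negative differences of each interaction at an adjusted p below 0.05 and a mean of at least 20 CPM, or other members of a list. A few genes that the rule picks are not reported here. Aldh1a2 and Gstt1 were named for their place at the minimum. The members and lists were chosen with earlier results of these data known. Alternatives were pseudocounts of 0.5 and 5, no filter or a mean of at least 50 CPM, an unmoderated F test, all 12 groups in 1 fit, median-of-ratios scaling, a replicate block, a lowess correction for GC content, each library left out and, chosen after seeing the data, both choroid plexus rich libraries left out. The fits were tested on simulated data.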

Additional observations from a re-analysis of the deposited data

Results flagged for a closer look

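In 23 of 432 groups of 4 libraries tested, a single library stood apart from the other 3 of its group by Dixon's test, and chance alone flags about 1 in 20 groups, or 22 here. Among controls, replicate 3 stood apart in Ttr (1801 CPM), Cryab (129.4 CPM), Ftl1 (190.9 CPM), Gria1 (894.7 CPM), Pllp (44.83 CPM), Tet2 (23.38 CPM) and Trem2 (18.89 CPM). Control replicate 4 stood apart in C3 (5.884 CPM), Ctss (51.46 CPM), Dbp (30.96 CPM), Il6ra (6.071 CPM) and Mt2 (37.4 CPM), and control replicate 2 in Hmox1 (6.449 CPM). On day 1, replicate 2 stood apart in Cdh5 (37.22 CPM), Clock (40.65 CPM), Dcx (7.09 CPM) and Tm7sf2 (56.76 CPM). Day 1 replicate 4 stood apart in Ctla2a (50.9 CPM), Il6st (52.58 CPM) and Sox6 (6.748 CPM), replicate 3 in Mfsd2a (31.43 CPM) and Slc1a2 (1218 CPM), and replicate 1 in Il6ra (11.91 CPM). The calls of Ctla2a, Mfsd2a and Mt2 held in all 8 fits that left out a library.

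Several changes on day 1 differed between groups by limma's interaction test at an adjusted p below 0.05. Against young females the log2 fold change of old females was more positive in Ctla2a (by 2.425), Cyr61 (2.289), Mt2 (1.533), Cdkn1a (1.44), Pnpla2 (1.43) and Arid5a (1.387), and more negative in Lct (-1.981), Cbfa2t3 (-1.517), Chordc1 (-1.345), Padi2 (-1.217) and Ccnd1 (-1.183). Against old males it was more positive in Lcn2 (1.931), Mt2 (1.566) and Armcx5 (1.545), and more negative in Chordc1 (-1.639), Cbfa2t3 (-1.636) and Ugt8a (-1.538). Ctla2a and Pnpla2 were also more positive, and Lct and Padi2 more negative, than in old males at that threshold.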

How the results depend on the processing

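The 3141 calls in old females lay between 2377 (without control replicate 1) and 3030 when a library was left out, with 2153 genes called in all 8 such fits. They numbered 954 of 3681 genes (1033 under an adjusted p of 0.05) at a mean of at least 50 CPM, 4546 of 27638 with no filter and 2587 by the unmoderated F test. The age interaction went from 1042 to 1694 with all 12 groups in 1 fit, 1623 with no filter and 238 at a mean of at least 50 CPM, and its 473 adjusted calls to 798 with the GC correction, 1427 with all groups and 51 at that minimum. With a library left out these adjusted calls lay between 215 and 628, with 215 when control replicate 1 of the old females was dropped, 287 and 288 when their day 1 replicates 1 and 4 were, and 227 and 287 for day 1 replicates 1 and 4 of the young females. The sex interaction gave 575 calls and 505 adjusted calls at a mean of at least 50 CPM, against 1930 and 1716, and 1166 to 2125 adjusted calls with a library left out. The cause of these differences was not tested, beyond the number of genes or libraries that enter. With the replicate number as a block, 2413 genes were called in old females, 776 for age (193 adjusted) and 1401 for sex (865 adjusted). Same-numbered libraries deviated together at correlations of 0.107, -0.578, 0.432 and -0.25, so the numbers were not taken to pair the mice. Of the genes named with a change, those called in fewer than 8 of the leave-one-out fits were Pfkfb3 (1), Neat1 (2), Cd93, Csf1r, Gpx3, Grin1 and Tm7sf2 (3 each), Heph (4), Bag3, Clock and Prkcd (5 each), Adgrg1 and Fos (6 each), and Hapln2 (7). By the unmoderated F test 22 of the genes named lost their call and 2 gained one. With both choroid plexus rich libraries left out 8 lost it and 1 gained one. At a mean of at least 50 CPM the median of homeostatic microglial genes was 0.15 and that of oligodendrocyte genes -0.27. No call among the genes named turned its direction in any alternative run, but genes not called did, Aldh1a2 going from 0.58 to -0.027 without day 1 replicate 2, and so did several list medians, that of homeostatic microglial genes among them. Genes at a few CPM rest on few reads, and 4 mice per group limit what could be called.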
